A study of Mus musculus with 16 samples.

Results

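Brown adipose tissue (BAT) expresses genes for hormones and growth factors that it releases, and 10 of them are described here: *Adipoq*, *Lep*, *Retn*, *Rbp4*, *Nrg4*, *Metrnl*, *Angptl8*, *Apln*, *Adm* and *Igf1*. They were listed by name as known adipokines and brown fat secreted factors, and are 10 of the 49066 gene symbols in the data. The rule itself uses no measured value, but the list was drawn up with earlier results of these data known, so that the shares over all genes given beside counts of members are a background for description only. The RNA came from BAT of C57BL6/J mice that were 18 weeks old and had eaten a high-fat diet (HFD, 60% of kcal from fat) for 12 weeks, from 6 weeks of age. Every mouse was homozygous for a floxed *Gdf15* allele (*Gdf15* fl/fl). WT mice lacked Cre, and KO mice (GDF15 BKO) also carried Tg(Ucp1-cre)1Evdr, in which the *Ucp1* promoter drives Cre, so that deletion was directed to *Ucp1*-expressing adipocytes while the other cells of the depot kept the gene. No group carried Cre without the floxed allele, so presence of the transgene and loss of *Gdf15* cannot be told apart. There were 4 libraries in each of 4 groups, WT and KO of either sex. The study asked how the loss of *Gdf15* acts in each sex. On this diet it found higher body weight and fat mass in KO than in WT males, and lower in KO than in WT females. Genotype and adiposity within a sex therefore cannot be told apart here, nor can sex and adiposity among KO mice.

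Adipokines are proteins that fat cells secrete into blood or into the tissue around them, where they act on appetite, insulin sensitivity, lipid handling and vessels. White fat is the main source of leptin, whose production follows the lipid content of the fat cell, whereas active brown fat is known for little leptin and for its own factors, often called batokines, such as NRG4. Adrenomedullin, apelin and IGF1 are made by many cell types, among them vascular, stromal and immune cells, so that their RNA in whole BAT need not come from adipocytes.

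The stretches of 250 bases before the transcription start are shown for 4 members on which the comparisons below turn: *Adm*, which differed between KO and WT, and *Lep*, *Retn* and *Igf1*, which differed between KO females and KO males. All 10 symbols were found in the RefSeq promoter table (GRCm38.p6), *Rbp4* with 2 start sites. The sequences run 5′ to 3′ on the gene's own strand, and capitals mark any match, on either strand, to 8 motifs that were searched: TTGCGCAA (a C/EBP palindrome), GCGTG (a hypoxia response core), GGGCGG (the GC box), ACGTG (the other form of the hypoxia response core), TATAAA (the TATA box), AGGTCA (a nuclear receptor half-site), CACGTG (the E-box, which contains the second hypoxia core) and TGACGTCA (the cAMP response element).
Adm, chr7:110627407-110627656, plus strand: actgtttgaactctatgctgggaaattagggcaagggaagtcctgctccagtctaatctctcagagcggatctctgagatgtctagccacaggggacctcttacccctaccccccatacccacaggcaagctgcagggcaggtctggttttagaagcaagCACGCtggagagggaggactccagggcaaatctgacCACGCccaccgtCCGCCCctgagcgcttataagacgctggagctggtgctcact
Lep, chr6:29059971-29060220, plus strand: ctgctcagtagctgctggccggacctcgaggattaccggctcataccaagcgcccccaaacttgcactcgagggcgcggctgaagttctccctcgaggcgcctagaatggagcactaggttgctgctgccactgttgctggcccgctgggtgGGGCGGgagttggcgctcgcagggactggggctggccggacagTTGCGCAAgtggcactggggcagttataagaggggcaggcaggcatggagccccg
Retn, chr8:3655520-3655769, plus strand: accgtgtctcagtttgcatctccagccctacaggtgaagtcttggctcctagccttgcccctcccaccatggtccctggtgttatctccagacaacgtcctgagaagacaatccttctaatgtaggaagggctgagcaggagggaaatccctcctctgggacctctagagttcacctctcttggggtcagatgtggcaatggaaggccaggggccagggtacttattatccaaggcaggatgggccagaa
Igf1, chr10:87860861-87861110, plus strand: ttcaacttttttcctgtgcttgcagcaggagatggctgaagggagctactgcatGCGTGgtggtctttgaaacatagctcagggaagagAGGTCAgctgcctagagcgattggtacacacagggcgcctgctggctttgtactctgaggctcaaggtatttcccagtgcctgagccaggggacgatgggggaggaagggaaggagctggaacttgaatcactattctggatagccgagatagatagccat
The *Lep* window held TTGCGCAA, which 0.164% of all 32851 promoter windows of the same length held, and the other 9 members did not hold it. GGGCGG stood in the windows of *Lep*, *Adm*, *Metrnl*, *Rbp4* and *Apln*, 5 of 10 members, and in 32.7% of all windows. GCGTG stood in 6 of 10 members, *Adm* and *Igf1* among them, and in 28.2% of all windows. AGGTCA stood in *Igf1* and *Nrg4*, against 14% of all windows. ACGTG stood in *Nrg4* and *Rbp4* (16.6% of all windows) and TATAAA in *Rbp4* alone (12.4%). CACGTG and TGACGTCA, which 6.02% and 1.55% of all windows held, stood in none of the members, and the *Retn* and *Adipoq* windows held none of the 8 motifs. These matches describe letters only.

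The authors deposited transcript abundances as TPM, which are divided by transcript length and sum to 1000000 in each library, so levels of different genes can be set side by side but the number of reads behind them is unknown. Mitochondrial transcripts took 34.5 to 59.8% of the TPM. One female WT library, replicate 4, had 17.7% of its TPM in transcripts that matched no gene. *Gdf15* itself was low: the male WT libraries had 0.368, 0.690, 1.55 and 3.81 TPM and the male KO libraries 0.0801 to 0.272 TPM, without overlap, while the female WT libraries had 0.0622 to 0.311 TPM and the female KO libraries 0 to 0.0794 TPM, with overlap. The *Gdf15* values of the female groups are therefore a weak check of their labels. *Ucp1* was at 2350 TPM or more in every library and all 12 brown adipocyte markers were detected, so that the tissue carried the defining genes of its label. Of the 9 white adipocyte markers, *Hoxc9*, *Hoxc10* and *Tcf21* had at most 0.0760 TPM and *Agt* and *Trim14* averaged under 1 TPM, whereas *Nnat* had 11.7 to 83.9 TPM, *Mest* 1.53 to 12.5 TPM, *Hoxc8* 0.110 to 5.16 TPM and *Wfdc21* 0.477 to 5.00 TPM. Muscle markers summed to between 1.92 and 3840 TPM, with both low and high libraries in every group. General adipocyte markers summed to 7920 to 12900 TPM, white adipocyte markers to 16.7 to 105 TPM, neutrophil markers to 2.44 to 15.3 TPM, lymphocyte markers to 1.73 to 5.54 TPM and epithelial markers to 0.0248 to 8.23 TPM. Fewer cells of a type and less RNA per cell cannot be told apart in whole tissue.

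*Adipoq*, the gene for adiponectin, a plasma protein associated with insulin sensitivity, was by far the most abundant member, with 569 ± 103 TPM (SD, n = 16) and rank 141 of 49066 symbols. Its level was 8.20 times that of the next member, and *Adipoq* was above it in 16 of 16 libraries. *Nrg4* (69.4 TPM), *Rbp4* (60.7 TPM), *Lep* (51.4 TPM), *Retn* (36.2 TPM) and *Angptl8* (29.1 TPM) followed in this order by mean level. Neighbours among these 5 did not separate, since the higher was above the lower in 8 to 11 of 16 libraries. *Angptl8* exceeded the next member, *Metrnl*, in 16 of 16 libraries. *Metrnl* (4.57 TPM), *Igf1* (4.51 TPM), *Adm* (2.20 TPM) and *Apln* (1.89 TPM) formed a low set in which the higher neighbour was above the lower in 8 to 12 of 16 libraries. These levels are sums over all transcripts of a gene, and the protein-coding transcripts of *Nrg4* alone had 6.73 TPM.

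The members differed in how steady they were. *Adipoq* varied 1.99-fold between its lowest and highest library, *Nrg4* 2.23-fold, *Metrnl* 2.49-fold and *Rbp4* 2.67-fold. *Lep*, the gene for the satiety hormone leptin, varied 76.8-fold, and *Retn*, the gene for resistin, an adipocyte hormone of mice linked to insulin resistance, 13.7-fold. Within a group the coefficient of variation of *Lep* ran from 24.8% in male KO to 107% in female KO, whereas that of *Adipoq* ran from 3.52% in male KO to 25.7% in female WT.

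**Figure D1:**
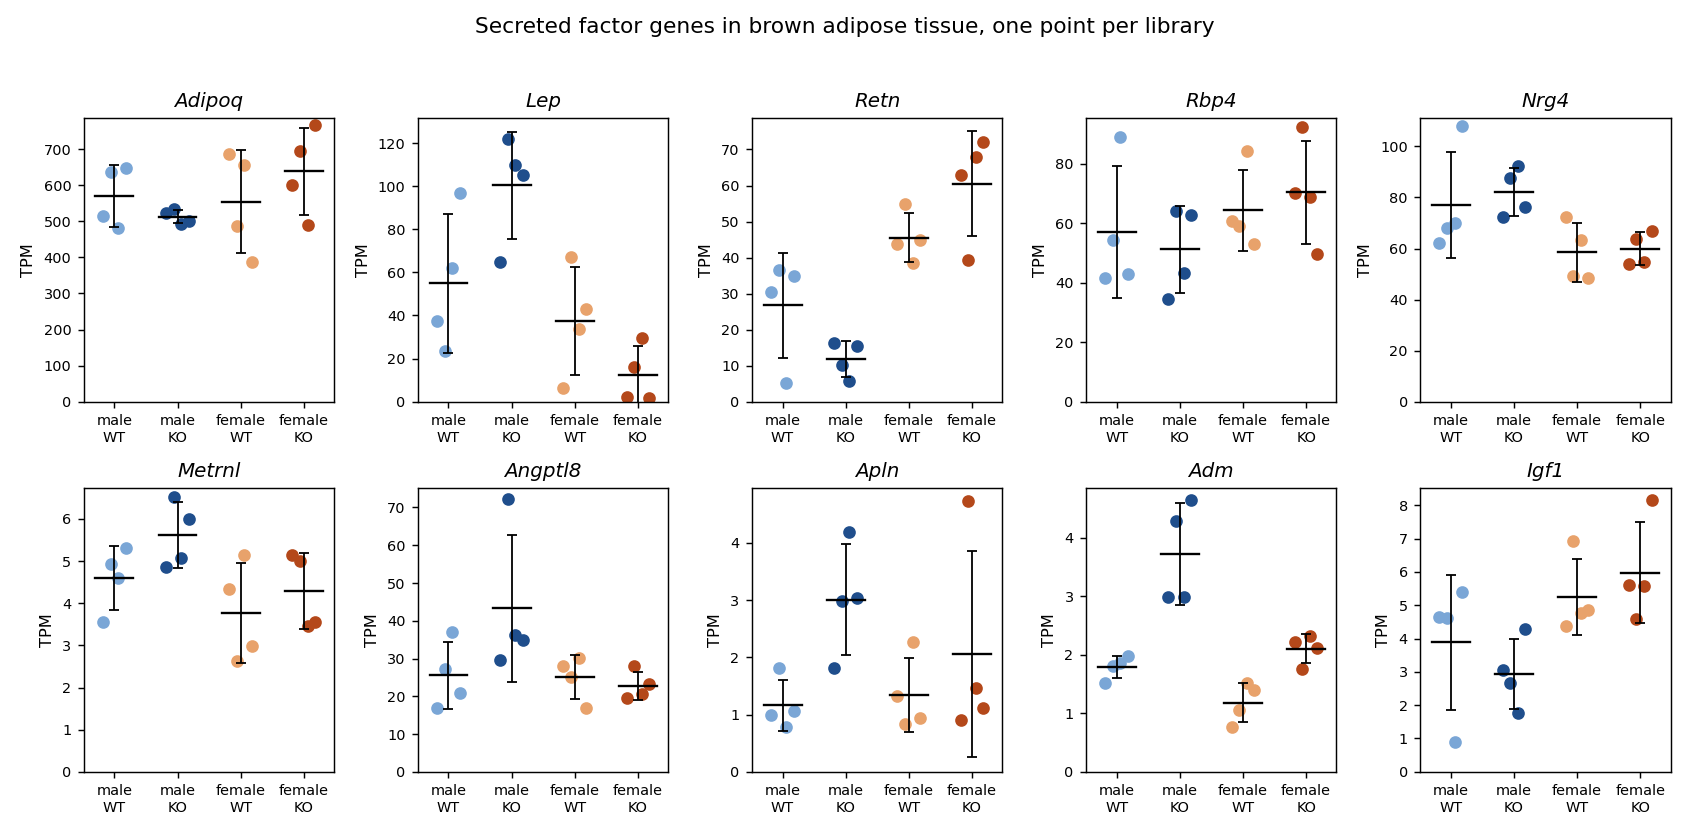
Level of each of the 10 genes in TPM (vertical axes from 0, a separate scale for each gene), 1 point per library, 4 libraries per group, with the group mean as a line and the SD as bars, cut off where they would pass below 0. *Adm* is higher in KO than in WT in both sexes, *Lep* is high in male KO (64.9 to 122 TPM) and low in female KO (1.59 to 29.6 TPM), and *Retn* lies the other way round (5.73 to 16.2 and 39.3 to 72.2 TPM).

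In males the vascular peptides *Adm* and *Apln* were higher in KO than in WT in every library, and *Lep* and *Angptl8* were higher on average with overlap. *Adm* encodes adrenomedullin, a vasodilator peptide that also acts on the endothelium of blood and lymph vessels. The male WT libraries had 1.52, 1.80, 1.86 and 1.98 TPM of *Adm* and the male KO libraries 2.98, 4.29, 2.99 and 4.65 TPM. The lowest KO value was above the highest WT value, and the log2 fold change was 0.86 (SE 0.16, adjusted p = 0.135, limma). *Apln* encodes apelin, the ligand of the vascular and cardiac receptor APLNR, which adipocytes release in response to insulin. Its values were 1.0, 1.81, 0.781 and 1.07 TPM in male WT and 1.82, 2.98, 4.19 and 3.04 TPM in male KO. Here the groups only just separated, at 1.81 against 1.82 TPM, with a log2 fold change of 1.07 (SE 0.25, adjusted p = 0.164, limma).

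*Lep* had 37.3, 23.3, 62.2 and 96.7 TPM in male WT and 64.9, 122, 110 and 105 TPM in male KO. WT replicate 4 lay above KO replicate 1, and the other 3 KO libraries lay above all WT libraries (log2 fold change 1.03, SE 0.41, adjusted p = 0.239, limma). *Angptl8* encodes a feeding-induced protein that takes part in the control of lipoprotein lipase. Its values were 16.9, 27.2, 37.1 and 20.9 TPM in male WT and 29.7, 72.3, 36.3 and 34.8 TPM in male KO. KO replicate 2 alone stood above all WT libraries, and without it the log2 fold change of 0.72 (SE 0.31, adjusted p = 0.263, limma) became 0.45.

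*Retn* moved the other way on average, with 30.4, 36.6, 5.26 and 34.9 TPM in male WT against 16.2, 10.1, 5.73 and 15.4 TPM in male KO. WT replicate 3, at 5.26 TPM, was below every KO library while the other 3 WT libraries were above all of them, and the log2 fold change of -0.93 (SE 0.60, adjusted p = 0.408, limma) became -1.58 (adjusted p = 0.272) without that library. *Igf1*, a growth factor gene, had 4.65, 4.61, 0.893 and 5.40 TPM in male WT, with the same low library, and 3.05, 2.68, 1.76 and 4.28 TPM in male KO. Its log2 fold change was -0.21 (SE 0.45) with and -0.69 without WT replicate 3. *Adipoq* (-0.14), *Rbp4* (-0.13), *Nrg4* (0.12) and *Metrnl* (0.27) had small log2 fold changes, and the sign for *Nrg4* was reversed, at -0.05, with median-of-ratios scaling.

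None of the 10 genes passed an adjusted p of 0.05 in males, where 0.00821% of the 12177 genes tested did (1 gene; limma on log2(TPM + 0.5), Benjamini-Hochberg over all genes). *Adm*, *Apln*, *Lep* and *Angptl8* had an unadjusted p under 0.05, all higher in KO, where 17.7% of all genes did so in that direction. *Adm* and *Apln* did not overlap between the groups, as 10.2% of all genes did not. The median log2 fold change over all genes tested was 0.16, and relative to it *Adm* stood at 0.70 and *Apln* at 0.90. With median-of-ratios scaling, which brought that median to 0.00, the genes with an unadjusted p under 0.05 changed from 2151 higher and 130 lower to 1006 and 877, and the members among them were *Adm* and *Apln* higher and *Adipoq* lower (-0.31). With all 16 libraries in one fit *Adm* passed in males, with an adjusted p of 0.0463. Among the 12 macrophage markers, 9 of which had at least 1 TPM, the summed level ran from 47.5 to 92.6 TPM in male WT and from 120 to 174 TPM in male KO. The 9 fibroblast markers summed to 75.2 to 136 and 141 to 156 TPM. The part of these cells in the *Adm* and *Apln* values was not tested. Within the library name prefix 9, the only one with libraries of both male groups (3 KO and 2 WT), the difference was 0.87 for *Adm*, 1.44 for *Apln*, 0.53 for *Lep* and -0.49 for *Retn*.

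In females *Adm* was again higher in KO than in WT in every library, and *Lep* was lower on average. The female WT libraries had 0.767, 1.06, 1.51 and 1.39 TPM of *Adm* and the female KO libraries 2.22, 1.76, 2.32 and 2.12 TPM. The groups did not overlap, and the log2 fold change was 0.65 (SE 0.20, adjusted p = 0.231, limma). *Lep* had 6.41, 67.2, 33.7 and 42.8 TPM in female WT and 2.24, 16, 29.6 and 1.59 TPM in female KO. KO replicates 1 and 4 were below all WT libraries, whereas WT replicate 1 was below KO replicates 2 and 3, so that the groups overlapped despite a log2 fold change of -1.98 (SE 0.97, adjusted p = 0.322, limma). Within prefix 8b (1 KO and 3 WT libraries) the *Lep* difference was -0.63 and within prefix 10 (1 of each) -1.34.

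*Retn* had 43.9, 54.8, 38.5 and 45.0 TPM in female WT and 62.8, 39.3, 67.8 and 72.2 TPM in female KO. KO replicates 1, 3 and 4 were above all WT libraries and replicate 2 was not (log2 fold change 0.38, SE 0.21, adjusted p = 0.364, limma). *Apln* had 1.33, 0.828, 2.26 and 0.939 TPM in female WT and 0.911, 4.73, 1.47 and 1.11 TPM in female KO. KO replicate 2 alone was high, and without it the log2 fold change of 0.32 became -0.10. *Igf1* had 4.39, 6.93, 4.77 and 4.87 TPM in female WT and 5.6, 4.6, 5.58 and 8.15 TPM in female KO, largely the same range. *Adipoq* (0.22), *Rbp4* (0.12), *Nrg4* (0.05), *Metrnl* (0.19) and *Angptl8* (-0.11) had small log2 fold changes with overlap, and that of *Nrg4* was -0.05 with median-of-ratios scaling and that of *Rbp4* -0.04 with TPM rescaled over genes outside the mitochondrial genome.

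No member passed the adjusted threshold in females, and 0% of the 12141 genes tested did. *Adm* alone had an unadjusted p under 0.05, as 17.1% of all genes had in either direction, and it alone did not overlap, as 8.09% of all genes did not. The difference of *Adm* relative to the median of all genes (0.10) was 0.55, and within prefixes 10 and 8b the *Adm* difference was 1.10 and 0.64. Median-of-ratios scaling changed the genes with an unadjusted p under 0.05 from 1414 higher and 663 lower to 1289 and 1162. Endothelial markers (8 genes, all above 1 TPM on average) summed to 226 to 335 TPM in female WT and 363 to 731 TPM in female KO, and macrophage markers to 57.4 to 122 and 78.0 to 115 TPM. The part of endothelial cells in the *Adm* value was not tested.

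**Figure D2:**
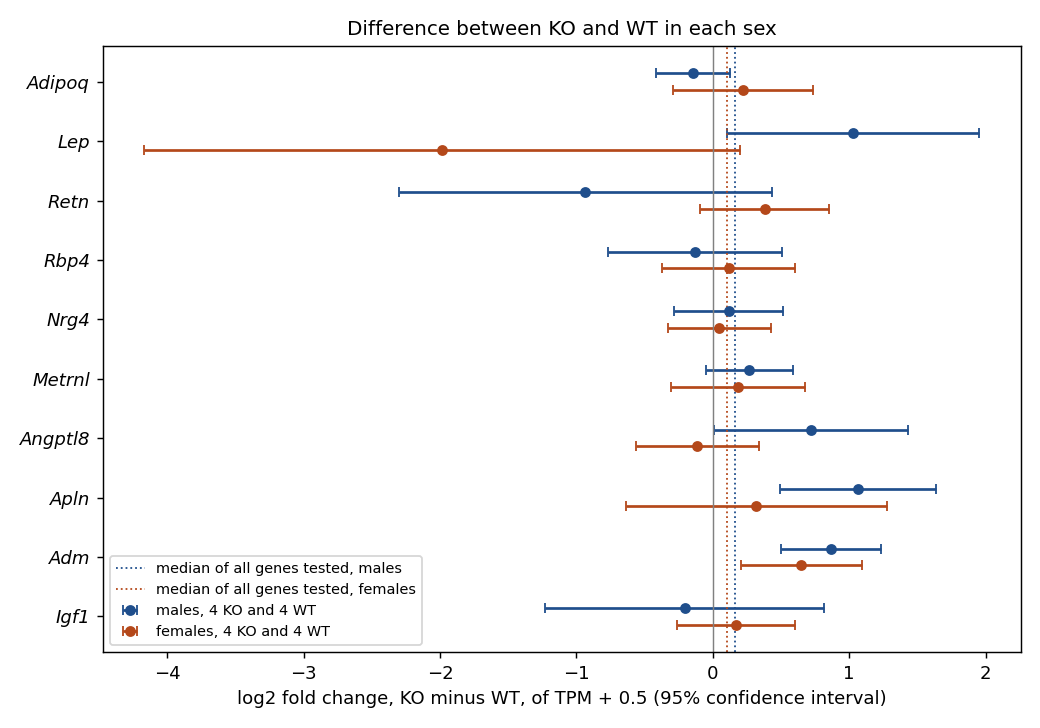
Log2 fold change between KO and WT (horizontal axis, KO minus WT, of TPM + 0.5) with its 95% confidence interval from limma for each gene in males and in females, 4 KO and 4 WT libraries each. Dotted lines are the medians of all genes tested, 0.16 in males and 0.10 in females. The *Adm* intervals lie above both in the 2 sexes, and *Lep* is at 1.03 in males and -1.98 in females.

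*Adm* was the member that rose in KO over both sexes. The mean of its male and female differences was 0.76 on the log2 scale (SE 0.12), a 1.69-fold change, with an adjusted p of 0.0112 (limma, 16 libraries), and 8 of 8 KO libraries were above every WT library of the same sex. It was 1 of 10 members to pass, where 2.95% of the 12210 genes tested passed in either direction and 2.6% passed as higher. The call held in 24 of 24 alternatives that kept the gene, with a log2 fold change of 0.63 to 0.91 and an adjusted p of 0.00977 to 0.0370. A minimum mean TPM of 5, also among the alternatives, left *Adm* out, as its mean was 2.2 TPM. One annotated *Adm* transcript, the protein-coding one, held 94.2% of the gene's TPM, from 78.5 to 100% by library and on average 88.9% in male WT against 98.1% in male KO, and by that transcript alone the difference was 0.98 in males and 0.65 in females. *Apln* had a mean difference of 0.69 (SE 0.26, adjusted p = 0.129). The other 8 had mean differences between -0.48 (*Lep*) and 0.30 (*Angptl8*), and that of *Lep* was 0.19 with the library name prefix as a covariate.

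*Lep* changed in opposite directions on average, and the difference of its KO effect between females and males was -3.01 on the log2 scale (SE 1.15). That difference did not pass the adjusted threshold (adjusted p = 0.272, limma). No member passed, and 0% of the 12210 genes tested did. *Lep* alone among the members had an unadjusted p under 0.05, as 14.2% of all genes had. The differences were 1.31 for *Retn* (SE 0.69, adjusted p = 0.405), -0.83 for *Angptl8* (SE 0.39, adjusted p = 0.354) and -0.75 for *Apln* (SE 0.52, adjusted p = 0.528). For *Adm* the difference was -0.22, with a 95% confidence interval of -0.73 to 0.30. The interaction and the within-sex comparisons use the same libraries.

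Female and male levels differed for several members among KO mice. *Retn* was 5.10 times as high in KO females (60.5 ± 14.6 TPM, SD, n = 4) as in KO males (11.9 ± 4.90 TPM), and *Igf1* was also higher in KO females. *Lep* was 8.15 times as high in KO males (101 ± 24.9 TPM) as in KO females (12.4 ± 13.3 TPM), and *Adm* and *Nrg4* were also higher in KO males. *Nrg4* encodes neuregulin 4, a ligand of ERBB4 and ERBB3 that brown adipocytes release and that acts on liver and nerve. The *Nrg4* libraries had 72.3, 87.5, 92.3 and 76.4 TPM in male KO and 54.1, 63.7, 54.8 and 66.9 TPM in female KO, against 62.3, 68.1, 70.1 and 108 TPM in male WT and 72.5, 49.4, 63.5 and 48.5 TPM in female WT. The KO groups did not overlap and the WT groups did.

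Of the 10 members 5 passed the adjusted threshold between KO females and KO males, where 9.28% of the 12270 genes tested passed, 1.08% higher in females and 8.21% lower. The log2 fold change, females minus males, was 2.37 for *Retn* (SE 0.33, adjusted p = 0.0153, limma) and 0.94 for *Igf1* (SE 0.24, adjusted p = 0.0465). It was -3.75 for *Lep* (SE 0.81, adjusted p = 0.0326), -0.68 for *Adm* (SE 0.16, adjusted p = 0.0401) and -0.45 for *Nrg4* (SE 0.12, adjusted p = 0.0481). Those 5 and *Angptl8* (-0.83, adjusted p = 0.0744), 6 of 10, did not overlap between the groups, as 18.1% of all genes did not. *Angptl8* had 19.6, 27.9, 20.5 and 23.2 TPM in female KO, all below the lowest male KO library at 29.7 TPM. Relative to the median of all genes (-0.11) the values were 2.48 for *Retn*, 1.04 for *Igf1*, -3.64 for *Lep*, -0.57 for *Adm* and -0.34 for *Nrg4*. With median-of-ratios scaling, where the genes with an unadjusted p under 0.05 moved from 660 higher and 2928 lower to 1668 and 1936, the 5 kept their signs and *Retn* alone passed (adjusted p = 0.0207, against 0.0501 for *Lep*). *Retn* also alone passed with TPM rescaled over genes outside the mitochondrial genome (adjusted p = 0.0208) and without a TPM minimum (0.0419). Over all alternatives that kept the gene, left-out libraries included, *Retn* passed in 17 of 18, *Lep* in 10 of 18 and *Adm* in 7 of 17. *Nrg4* passed in 6 of 18 and *Igf1* in 4 of 17, and each of the 5 had the same sign throughout.

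Most of these calls were lost when a single library was left out. The *Retn* call was lost without male KO replicate 2 (2.33, adjusted p = 0.0684) and held without each of the other 7 libraries. The *Lep* call was lost without male KO replicate 2, 3 or 4 or female KO replicate 1 or 4, where the adjusted p ran from 0.0755 to 0.109 and the log2 fold change from -3.72 to -3.15. The *Adm* call was lost without the same 5 libraries (adjusted p 0.0854 to 0.127, log2 fold change -0.77 to -0.58). The *Nrg4* call was lost without those and without female KO replicate 3 (adjusted p 0.0689 to 0.147, log2 fold change -0.51 to -0.39), and the *Igf1* call without any library except female KO replicate 2 (adjusted p 0.0621 to 0.132, log2 fold change 0.75 to 1.11). *Adipoq* passed without female KO replicate 3 (0.42, adjusted p = 0.0461) and *Apln* without female KO replicate 2 (-1.05, adjusted p = 0.0313). Counting every alternative that kept the gene, *Adipoq* passed in 2 of 18 and *Apln* in 2 of 17, with a lowest adjusted p of 0.0402 and 0.0239 (limma). Within the library name prefixes shared by KO males and KO females, the *Lep* difference was -4.58 (prefix 10, 1 library each) and -5.75 (prefix 9, 1 female and 3 males), and the *Retn* difference 1.92 and 2.84. Macrophage markers summed to 78.0 to 115 TPM in female KO and 120 to 174 TPM in male KO, and their part in these differences was not tested.

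Among WT mice no member passed, where 0.0664% of the 12042 genes tested did. *Retn* (log2 fold change, females minus males, 1.05, SE 0.53) was higher in all 4 WT females, with a value of 0.41 without male WT replicate 3, and *Adm* (-0.46, SE 0.20) was lower in all 4. These were 2 of 10 members without overlap, as 1.92% of all genes had none, and both had an adjusted p of 0.9999 (limma). Any 4 against 4 libraries without overlap give an exact two-sided permutation p of 0.0286, the smallest possible. That p therefore adds nothing to the lack of overlap. The *Lep* difference in WT was -0.74 (SE 0.68), with overlap, and it was -0.06 without female WT replicate 1. Whether the sex difference itself differed between the genotypes is the same contrast as the difference of the KO effect, in which no member passed. Library name prefixes of WT males (5 and 9) and WT females (8b and 10) had none in common, so that sex and prefix cannot be told apart there.

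**Figure D3:**
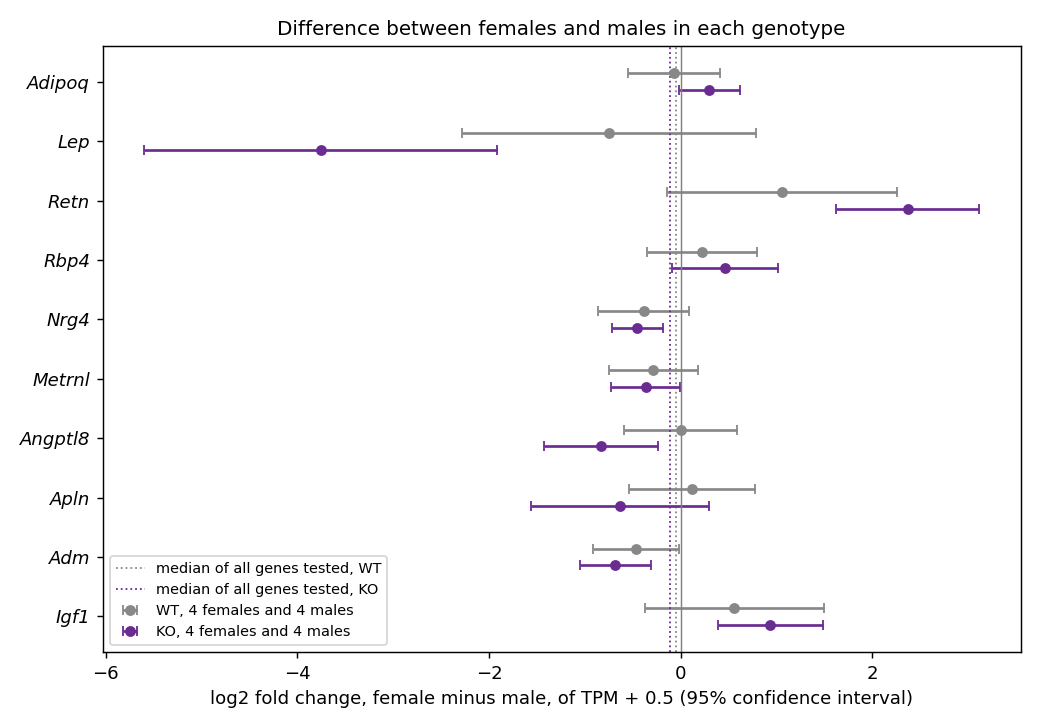
Log2 fold change between females and males (horizontal axis, female minus male, of TPM + 0.5) with its 95% confidence interval from limma for each gene among WT and among KO mice, 4 libraries per sex. Dotted lines are the medians of all genes tested, -0.05 in WT and -0.11 in KO. In KO mice *Retn* stands at 2.37 and *Lep* at -3.75.

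*Retn* and *Igf1* followed each other from library to library. Over the 16 libraries, after subtraction of the 4 group means from log2(TPM + 0.5), Pearson's r was 0.952 and Spearman's rho 0.894, and each was the gene most like the other among 12210 genes. *Trf*, the gene for transferrin, came next for both (r = 0.890), followed by *Ffar2*, a receptor for short-chain fatty acids (0.877 for *Retn* and 0.858 for *Igf1*). Male WT replicate 3 was the lowest library of its group for both genes, and without it r between *Retn* and *Igf1* was 0.829, whereas leaving out any of the other 15 libraries gave 0.948 to 0.967. The points share library composition and are given as a description. *Rbp4*, the gene for the plasma carrier of retinol, ran against *Retn* (r = -0.619) and with *Angptl8* (0.734).

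**Figure D4:**
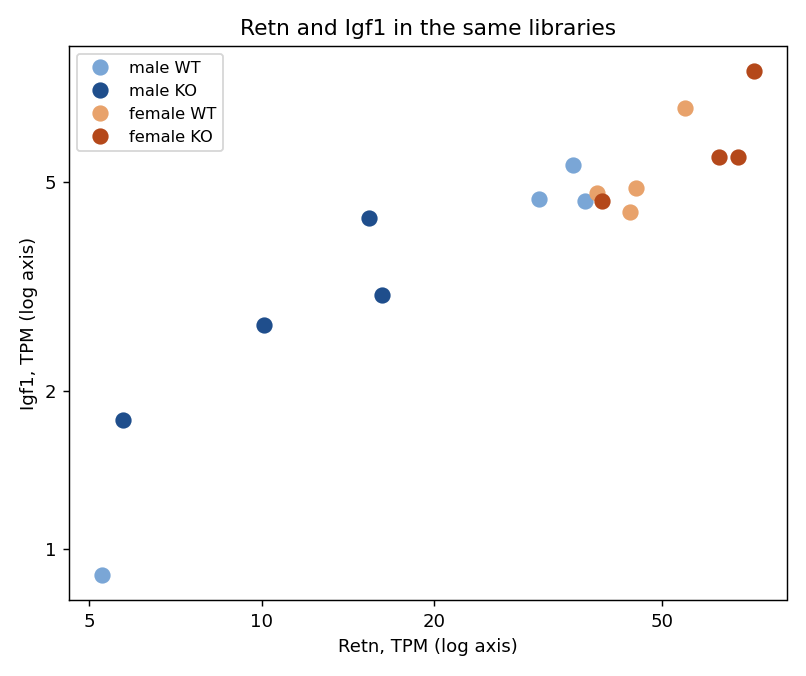
*Retn* (horizontal, TPM, log axis) against *Igf1* (vertical, TPM, log axis) in the 16 libraries, coloured by group. Both are lowest in male WT replicate 3 (5.26 and 0.893 TPM) and highest in female KO replicate 4 (72.2 and 8.15 TPM).

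The genes most like the remaining members were different ones. For *Lep* they were *Rnf150* (r = 0.948), *Hspa12a* (0.947) and *Npr3*, the natriuretic peptide clearance receptor (0.925). For *Adm* they were *Lat2* (0.939), an adaptor of myeloid and mast cells, *Gpnmb* (0.887), a gene of lipid-laden macrophages, and *Fbn1* (0.821), which encodes fibrillin 1 and the peptide asprosin. For *Adipoq* they were *Arl6ip1* (0.968), *1810037I17Rik* (0.965) and *Map1lc3b* (0.940), and for *Nrg4* *Fbxw8* (0.938), *Rnf6* (0.932) and *Cdc73* (0.932). *Metrnl* was most like *Tars2* (0.926), *Angptl8* most like *Hsd17b12* (0.886), *Apln* most like *Stx18* (0.906) and *Rbp4* most like *Gm26588* (0.907).

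The TPM of *Nrg4* came mostly from transcripts that are not annotated as protein-coding. Its 2 protein-coding transcripts together had 6.73 TPM on average, 9.70% of the gene's total, with a range of 6.75 to 12.6% over the libraries. The other 11 had 62.7 TPM, of which *Nrg4-210* held 40.2% and *Nrg4-209* 28.9% of the gene, both annotated as processed transcripts without a coding sequence. The protein-coding transcripts had 7.41 ± 1.22 TPM in male KO and 6.62 ± 0.908 TPM in female KO (SD, n = 4 each), ranges of 6.30 to 8.90 and 5.29 to 7.21 TPM that overlapped, unlike those of the whole gene. *Adm* had 5.82% in a second transcript that is not annotated as coding, up to 21.5% in a library, and the other 8 members had coding transcripts only. *Igf1* was divided among 8 transcripts, led by *Igf1-206* (36.4%), *Igf1-205* (24.4%) and *Igf1-202* (24.2%). *Adipoq-202* held 7.50% of *Adipoq*, from 0.00551 to 15.7% by library. How kallisto divided reads among such overlapping transcripts cannot be checked from TPM.

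**Figure D5:**
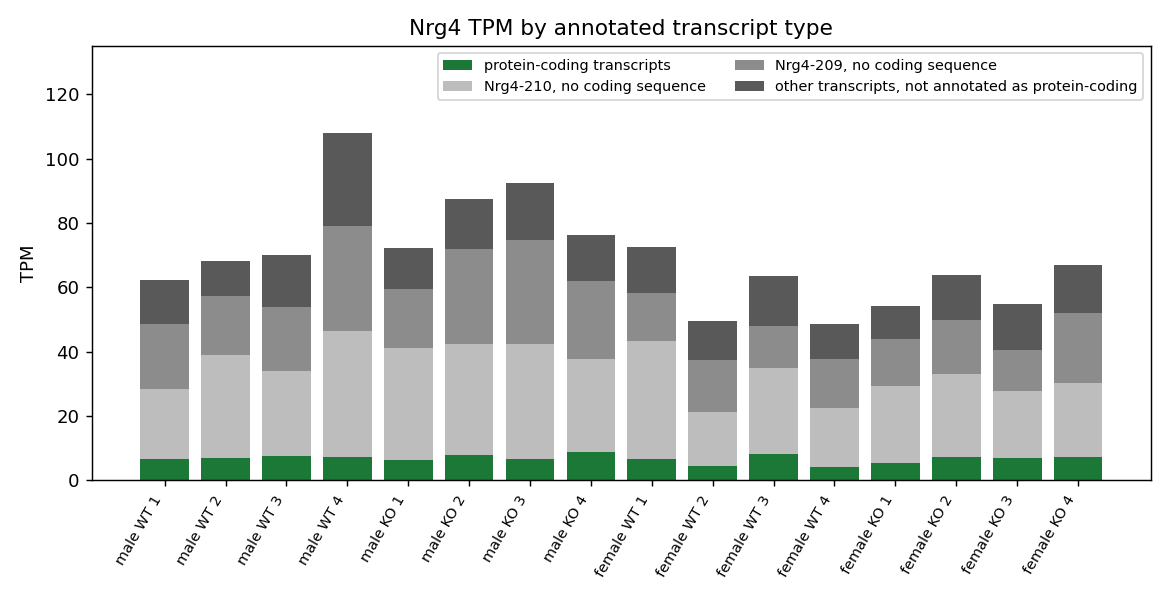
*Nrg4* TPM in each of the 16 libraries (vertical axis from 0), stacked by annotated transcript type. The protein-coding part is the lowest layer and takes 6.75 to 12.6% of each bar.

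Receptors and binding partners of the members, their relatives, further adipokines and their regulators were compared by the same fits, as 4 lists. In males alone, in females alone and between the sexes in WT, 0 genes of these lists passed the adjusted threshold. Between KO females and KO males the numbers higher and lower in females were 0 and 2 of 22 receptors and partners, 0 and 0 of 9 relatives, 1 and 4 of 23 further adipokines and 1 and 1 of 17 regulators, where 1.08% of all genes passed as higher and 8.21% as lower. Of 30 receptors and partners 21 were tested over both sexes, and 4 rose and 0 fell in KO, where 2.6% of all genes rose and 0.352% fell. Of the 21 differences 17 were above 0, as 75.5% of those of all genes were, with a median log2 fold change of 0.28 against 0.13 for all genes. *Ramp2*, the co-receptor that lets the calcitonin receptor-like receptor bind adrenomedullin, rose by 0.72 (SE 0.15, adjusted p = 0.0301, limma). It had 27.5, 45.0, 33.6 and 38.3 TPM in male WT, 45.2, 50.1, 51.3 and 48.5 TPM in male KO, 34.1, 20.9, 28.7 and 19.3 TPM in female WT and 73.1, 42.7, 38.2 and 53.3 TPM in female KO. KO was above WT without overlap in both sexes, by the narrow margin of 45.2 against 45.0 TPM in males. Endothelial markers, which did not overlap between the female groups (given above), summed to 243 to 489 TPM in male WT and 383 to 454 TPM in male KO, with overlap. The IGF binding protein genes *Igfbp6* (0.74, adjusted p = 0.0370) and *Igfbp7* (0.63, adjusted p = 0.0313) also rose over both sexes, and *Igfbp3* had 0.82 with an adjusted p of 0.0597. *Igfbp6* separated the male groups but overlapped in females (4.67 to 8.11 TPM in WT, 4.75 to 9.77 TPM in KO). *Igfbp7* separated the female groups but overlapped in males (29.4 to 60.1 TPM in WT, 54.4 to 64.7 TPM in KO). The fourth gene that rose, *Cdh13* (0.44, adjusted p = 0.0372), which encodes T-cadherin, a binding partner of adiponectin, is named after its values were seen. Fibroblast markers, which did not overlap between the male groups, summed to 100 to 126 TPM in female WT and 96.4 to 150 TPM in female KO, with overlap. The part of endothelial cells and fibroblasts in these values and in those of the next lists was not tested. *Adipor1*, an adiponectin receptor gene, was lower in KO females than in KO males (-0.50, adjusted p = 0.0224), as was *Cdh13* (-0.64, adjusted p = 0.0456).

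Relatives of the members rose in KO over both sexes in 4 of 9 tested cases of 23 listed, with 0 falling and a median of 0.53, against 2.6% of all genes rising, 0.352% falling and a median of 0.13. These were *C1qtnf1* (0.53, adjusted p = 0.0162), *C1qtnf6* (0.64, adjusted p = 0.0369) and *C1qtnf9* (0.63, adjusted p = 0.0354), paralogues of *Adipoq*, and *Retnla* (0.66, adjusted p = 0.0398), a paralogue of *Retn* that alternatively activated macrophages express. *Retnla* had 3.12, 4.17, 3.87 and 5.77 TPM in male WT and 9.79, 10.2, 14.6 and 12.1 TPM in male KO, without overlap. In females the *Retnla* ranges were 9.28 to 19.4 TPM in WT and 9.48 to 13.7 TPM in KO and overlapped. The KO effect of *Retnla* differed between the sexes by -1.42, with an adjusted p of 0.215. The summed macrophage markers given above likewise separated the male groups and overlapped between the female groups, and their part in the *Retnla* value was not tested.

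Among 39 further adipokine and batokine genes 23 were tested over both sexes, and 3 rose and 0 fell, where 2.6% of all genes rose and 0.352% fell. These were *Fstl1* (0.55, adjusted p = 0.0238), *Sparc* (0.42, adjusted p = 0.0341) and *Nucb2* (0.63, adjusted p = 0.0162), the gene of the nesfatin precursor. *Cfd*, the gene for adipsin, a serine protease of the alternative complement pathway made by adipocytes, had values that lay mostly below WT in male KO and mostly above WT in female KO. It had 658, 1260, 273 and 354 TPM in male WT and 318, 99.3, 72.1 and 80.5 TPM in male KO. In females it had 1490, 553, 1000 and 612 TPM in WT and 2580, 1620, 925 and 3380 TPM in KO. One KO library in each sex lay within the WT range, male KO replicate 1 and female KO replicate 3. The log2 fold changes of *Cfd* between KO and WT were -2.19 in males (adjusted p = 0.173) and 1.17 in females (adjusted p = 0.255), their difference was 3.36 (adjusted p = 0.215), and between KO females and KO males the change was 4.02 (SE 0.54, adjusted p = 0.0129). Of the regulators of these genes and the proteins that assemble adiponectin, 17 were tested, and over both sexes *Xbp1*, a transcription factor of the unfolded protein response, rose by 0.44 (adjusted p = 0.0144) and *Insr*, the insulin receptor gene, fell by 0.38 (adjusted p = 0.0235). *Hif1a*, the oxygen-regulated subunit of a hypoxia-inducible factor, was lower in KO females than in KO males (-0.91, adjusted p = 0.0254). Also called in that comparison, and named after their values were seen, were *Rarres2* (-0.95), *Fgf1* (-1.70) and *Ccl2* (-1.71) among the adipokines, lower in females, and the estrogen receptor gene *Esr1* (1.09) among the regulators, higher in females.

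The calls in the 4 lists depended on the processing. Of the 13 genes called over both sexes, 0 passed with the library name prefix as a covariate, 4 without a TPM minimum, 8 with the rescaled TPM and 10 with median-of-ratios scaling. Leaving out 1 library left between 3 and 13 of them, with 3 without male WT replicate 3, male KO replicate 2 or 3 or female KO replicate 1. *C1qtnf1*, *Nucb2* and *Xbp1* passed in 16 of 16 fits that left out a library. Of the 9 called between KO females and KO males, 0 passed without male KO replicate 2, 3 or 4.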

How the data were processed

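Bulk RNA was sequenced from 16 BAT samples, 4 in each group of sex and genotype. The labels do not tie samples to mice, but the study's legends give 4 WT and 4 KO mice for its sequencing, so each sample was taken as 1 mouse. Per the labels and the methods, the authors made stranded mRNA libraries, quantified single-end reads with kallisto 0.46.2 (build GRCm39 in the submitters' processing notes) and deposited transcript TPM, which are scaled to 1000000 per library. Read depth is therefore unknown and precision rests on the spread between libraries. The annotation behind the transcripts is not given in the sources used here. Identifiers were matched without version to GENCODE mouse release 21 (135051 of 137438, only 37 with their version). TPM were summed per symbol, which gave 49066 symbols, and 64 of these had several gene identifiers, whose TPM were added together. No member had more than 1 identifier. Promoters came from RefSeq (GRCm38.p6).

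The authors tested with DESeq2, which needs counts and was not run. Each comparison kept the genes whose TPM averaged 1 or more over its own libraries, and log2(TPM + 0.5) was fitted with limma 3.58.1 (R 4.3.3; eBayes with trend), with Benjamini-Hochberg adjustment over all genes tested and a threshold of 0.05. All 10 members passed the TPM minimum in each comparison, although *Adm* and *Apln* lay near it. Fold changes are on this scale and understate those of low genes. Genes below the minimum were compared with exact permutation tests (scipy 1.17.1). Figures were drawn with matplotlib 3.10.9 and tables made with pandas 2.3.3. The limma procedure was tested on simulated data, where it made calls at this group size.

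Groups came from the labels, and replicate numbers were checked for pairing (closing section). Named were all members, *Gdf15*, *Ucp1*, the 3 genes most like each member, up to 5 genes of each of 4 lists with the smallest p in males or females, and markers of 10 cell types. Members and lists were chosen with earlier results of these data known, and the list counts are descriptions. *Xist* and *Ddx3y* were used as a check of sex, and no library went against its label. Alternatives were other pseudocounts, TPM minimums and scalings, no trend, a replicate block, the library name prefix as a covariate, all libraries in one fit and leaving out each library. Leaving out libraries for the likeness of *Retn* and *Igf1* and the alternatives for the list genes were added after the data were seen.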

Additional observations from a re-analysis of the deposited data

Results flagged for a closer look

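Within each group of 4, the lowest and the highest library were checked by their gap to the nearest neighbour as a share of the range. This share exceeded Dixon's 95% critical value in 2 of 40 member and group combinations, both at the low end. *Retn* in male WT replicate 3 was at 5.26 TPM, against 30.4 to 36.6 TPM in the other 3 libraries, with a ratio of 0.901. *Igf1* in the same library was at 0.893 TPM, against 4.61 to 5.40 TPM, with a ratio of 0.899. Chance flags about 5% of such groups, which is the share seen here. The KO effects in males without this library are given beside the male comparison above.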

How the results depend on the processing

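The count of genes past the adjusted threshold moved strongly with the processing, so background shares depend on it. In males it was 1, and 2 with a pseudocount of 0.1, 0 without a TPM minimum, 3 with median-of-ratios scaling, 12 with TPM rescaled over genes outside the mitochondrial genome, 6 with the library prefix as a covariate, 38 with all 16 libraries in one fit and 0 to 5 when each library was left out. In females it was 0, and 8 with the prefix, 5 with all 16 libraries and 0 to 9 with a library left out. For the difference of the KO effect it was 0, and 1 without a trend and 0 to 3 with a library left out. For the mean effect it was 360, and 54 without a TPM minimum, 177 with a minimum of 5, 543 with the rescaled TPM, 12 with the prefix and 31 to 1055 with a library left out, lowest without male KO replicate 3 and highest without male WT replicate 2. Between the sexes in WT it was 8, and 3 with a minimum of 5 and 5 to 11 with a library left out, and the prefix could not be fitted there. Between the sexes in KO it was 1139, and 152 without a minimum, 573 with median-of-ratios scaling, 614 with the rescaled TPM and 3434 with the prefix. It was 28, 30 and 41 without male KO replicates 2, 3 and 4, 109 and 83 without female KO replicates 1 and 4, and 2080 without female KO replicate 2. Some of these fits held fewer libraries, and some held fewer or more genes. The cause of the shifts was not tested.

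Replicate numbers did not pair the libraries (correlations of same-numbered libraries of -0.117 to 0.349). With the replicate number as a block 0 genes passed in males and 1 in females, *Adm* (adjusted p = 0.0689) and *Nrg4* (0.0644) were lost between the sexes in KO and *Angptl8* (0.0346) was gained.

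Signs reversed only among log2 fold changes without a call, the largest of them -0.48 for *Lep* in the mean effect and 0.32 for *Apln* in females. With the prefix as a covariate these were *Nrg4* (-0.0305) and *Igf1* (0.18) in males, *Adipoq* (-0.0909), *Nrg4* (-0.14) and *Apln* (-0.0444) in females, and *Adipoq* (-0.0812), *Lep* (0.19), *Nrg4* (-0.0511) and *Igf1* (0.0613) for the mean effect. With median-of-ratios scaling they were *Nrg4* in males (-0.0513), in females (-0.0476), for the difference (0.0037) and for the mean effect (-0.0494), and *Adipoq* for the mean effect (-0.0947). With the rescaled TPM they were *Rbp4* (-0.0365) and *Nrg4* (-0.10) in females, and *Adipoq* (-0.0914) and *Nrg4* (-0.0462) for the mean effect. Leaving out a library gave ranges across 0 for *Rbp4* (-0.25 to 0.11) and *Igf1* (-0.69 to 0.0012) in males. In females it did so for *Rbp4* (-0.0246 to 0.27), *Nrg4* (-0.0335 to 0.16) and *Apln* (-0.10 to 0.53). For the difference of the KO effect it did so for *Nrg4* (-0.24 to 0.0408) and *Metrnl* (-0.22 to 0.0663), and for the mean effect for *Adipoq* (-0.0416 to 0.099), *Rbp4* (-0.0768 to 0.1126) and *Igf1* (-0.2626 to 0.0847). Between the sexes in WT it did so for *Adipoq* (-0.1835 to 0.0943), *Angptl8* (-0.17 to 0.20) and *Apln* (-0.10 to 0.29). By its most abundant transcript alone, *Nrg4* had 27.9 TPM and *Igf1* 1.64 TPM.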
